A study of Mus musculus with 37 samples.

Results

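Hearts of mouse embryos that carried 1 null allele of Nipbl were compared with and without the further loss of 1 copy of Isl1. The members are the 18 of 37 libraries whose titles give the genotype Nipbl +/-; Isl1 +/- (9 libraries, called double heterozygotes here) or Nipbl +/- with no Isl1 allele named (9 libraries). The other 19 libraries, 10 wild-type (Nipbl +/+; Isl1 +/+) and 9 Isl1 +/-, gave the same Isl1 contrast on a Nipbl +/+ background. All embryos were at day E10.5, came from Stra8-iCre; Nipbl Flox/+ fathers and Isl1 Cre/+ mothers, and were profiled by bulk paired-end RNA sequencing of the dissected heart.

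Both groups share the null Nipbl allele (Nipbl FIN), which formed in the sperm of the father and was thus present in every cell of the embryo. The Isl1 copy was lost through an allele that encodes Cre recombinase, so loss of Isl1 and presence of Cre cannot be told apart. Whether a library held 1 heart or several is not given in the labels, and p-values measure the spread between libraries. A set number in the sample labels, whose meaning is not spelled out, placed the Nipbl +/- libraries in sets 2 (2 libraries), 5 (4) and 6 (3). It placed the double heterozygotes in sets 2 (2 libraries), 5 (5), 6 (1) and 7 (1). Set entered the model as a covariate, so the single set 7 library was fitted exactly and 8 of the 9 double-heterozygous libraries carried the comparison.

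Isl1 is a LIM-homeodomain transcription factor of second heart field progenitors, which add the outflow tract, the right ventricle and much of the atria to the heart tube, and it remains on in the sinus node, the pacemaker of the heart. It works with Ldb cofactors and lies upstream of signals such as Fgf10 and of cardiac factors such as Mef2c, Hand2 and Shox2. Nipbl loads cohesin, the ring complex that forms chromatin loops between enhancers and promoters, and embryos with 1 functional copy develop heart defects.

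Total counts ranged from 31555358 to 46092831 in the Nipbl +/- libraries and from 27993207 to 43032049 in the double heterozygotes. The library labelled Nipbl +/- replicate 2 stood apart. It scored 122 on the first principal component (37% of variance), against -39.2 to 14.1 for the other 17 libraries. Its summed level of 15 unfolded-protein and integrated-stress genes was 16200 CPM (counts of a gene scaled to a common library total), against 3010 to 4230 in the other Nipbl +/- libraries. Its Nipbl level lay in the wild-type range, as given below. Its summed level of 15 cohesin subunits and regulators was 2090 CPM, against 1100 to 1450 in the other Nipbl +/- libraries. Whether its genotype label is right was not tested. Many results are therefore given with all 18 libraries and again without it. Xist was above 10 CPM in 5 of 9 Nipbl +/- and in 7 of 9 double-heterozygous libraries, so the sexes were not evenly spread.

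Isl1 lies on chromosome 13 (116298270 to 116309688, GRCm38) and gave 184 to 869 counts per library. In the Nipbl +/- libraries, replicates 1 to 9 in order, Isl1 stood at 11.0, 10.9, 12.3, 9.11, 12.7, 17.3, 13.7, 12.5 and 17.5 CPM. In the double heterozygotes, likewise in order, it stood at 14.6, 10.7, 4.80, 8.45, 5.86, 15.1, 8.47, 7.99 and 9.51 CPM. The median was thus 12.5 CPM in Nipbl +/- and 8.47 CPM in double heterozygotes. 5 double heterozygotes lay below every Nipbl +/- library, and the groups overlapped through replicates 1, 2, 6 and 9. The fitted log2 change was -0.43 (SE 0.21, 95% interval -0.86 to 0.01), with an unadjusted p of 0.0531 and an adjusted p of 0.955 in edgeR's quasi-likelihood test. With all 18 libraries the interval did not include -1, the log2 change that loss of 1 of 2 equally used copies would give. It was negative in each set compared, at -0.41 in set 2, -0.44 in set 5 and -0.76 in set 6, where a single double heterozygote stood against 3 libraries. Left out in turn, single libraries moved the log2 change from -0.58 without double-heterozygous replicate 1 (unadjusted p 0.00396) to -0.34 without double-heterozygous replicate 7 (unadjusted p 0.147). With the mean level of red blood cell genes as a covariate it was -0.20 (unadjusted p 0.303). Where Cre sits in Isl1 is not stated, and reads from the Cre allele's transcript may have been counted as Isl1, which was not tested.

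Without Nipbl loss the same allele gave an Isl1 log2 change of -0.23 (unadjusted p 0.168), from a median of 6.82 CPM in wild-type to 5.80 CPM in Isl1 +/- hearts. The Isl1 median was therefore higher in both Nipbl +/- genotypes than in either Nipbl +/+ genotype. The difference between the Isl1 changes on the 2 backgrounds was -0.27 (unadjusted p 0.311).

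Nipbl, on chromosome 15 (8289824 to 8465315), ranged from 28.2 to 51.5 CPM in double heterozygotes (median 37.2). The Nipbl +/- libraries spanned 27.1 to 72.4 CPM (median 37.6), and the highest value was replicate 2, the next being 44.9. That highest value lay inside the wild-type range of 47.6 to 78.8 CPM, whereas the other 8 lay below it. The highest double heterozygote, replicate 2 at 51.5 CPM, lay inside that range too. It is the single set 7 library, which was fitted exactly. The log2 change was -0.10 (unadjusted p 0.485), and 0.07 without replicate 2 (unadjusted p 0.378).

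**Figure D1:**
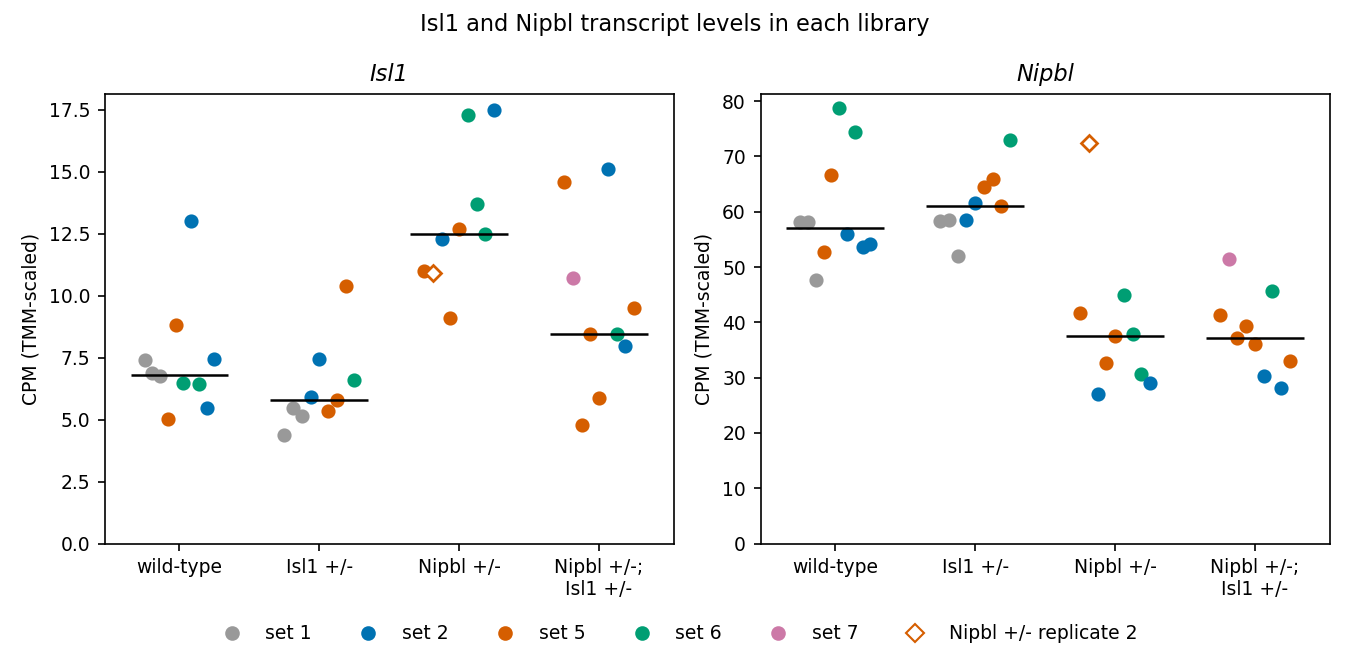
Isl1 (left) and Nipbl (right) levels in CPM, scaled by TMM over 37 libraries, for the 4 genotypes. Each point is a library coloured by its set, bars are medians, and the open diamond is the library labelled Nipbl +/- replicate 2. Its Nipbl level of 72.4 CPM lay among the wild-type libraries, and Isl1 overlapped between the Nipbl +/- and double-heterozygous groups.

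Across 14682 genes with enough counts, 0 passed an adjusted p of 0.05 between the genotypes (edgeR; 0% of genes tested), and the smallest adjusted p was 0.534. At an unadjusted p under 0.05 there were 698 genes (4.75%), of which 357 were higher (2.43%) and 341 lower (2.32%) in double heterozygotes. The median standard error of a log2 change was 0.14. Without Nipbl +/- replicate 2 it was 0.103, and 1 of 14725 genes passed (0.00679%). At an unadjusted p under 0.05, 835 genes (5.67%) then stood out, 520 higher (3.53%) and 315 lower (2.14%). No gene separated all 18 libraries by genotype.

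The gene that passed was Pitx1, a homeobox factor best known for hindlimb and pituitary development, on chromosome 13 (55825044 to 55836190). It is named after its values were seen, since its low level put it outside the naming rule. Pitx1 stood at 0.300 to 2.52 CPM in Nipbl +/- (median 0.817) and at 0.0878 to 0.528 CPM in double heterozygotes (median 0.279). Its lowest Nipbl +/- value was the library labelled replicate 2. The other 8 began at 0.608 CPM, above all 9 double heterozygotes, and without replicate 2 Pitx1 was the one gene whose groups did not overlap (0.00679% of 14725). The log2 change was -1.62 with all libraries (SE 0.29, edgeR adjusted p = 0.534) and -1.78 without replicate 2 (SE 0.24, edgeR adjusted p = 0.022). Pitx1 also passed with 2 surrogate variables (edgeR adjusted p = 0.0233), but not in the fit of all libraries of the series without replicate 2. A level this low left some libraries under 10 counts, so Pitx1 was not tested where at least 10 counts in every library were asked for. A gene this low can also pass the count filter through the group where it is high, here Nipbl +/-. Its call and its lack of overlap are therefore given as a description. Set means differed by -2.08, -1.23 and -1.26 in sets 2, 5 and 6. On the Nipbl +/+ background the log2 change was -0.56 (unadjusted p 0.0654), with medians of 0.753 CPM in wild-type and 0.492 CPM in Isl1 +/- hearts. DESeq2 on the same 18 libraries called 3 genes: Pitx1 (log2 change -1.64, adjusted p = 0.000965), Ccn2 (0.47, adjusted p = 0.0162) and Hoxc4 (-2.58, adjusted p = 0.0324).

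**Figure D2:**
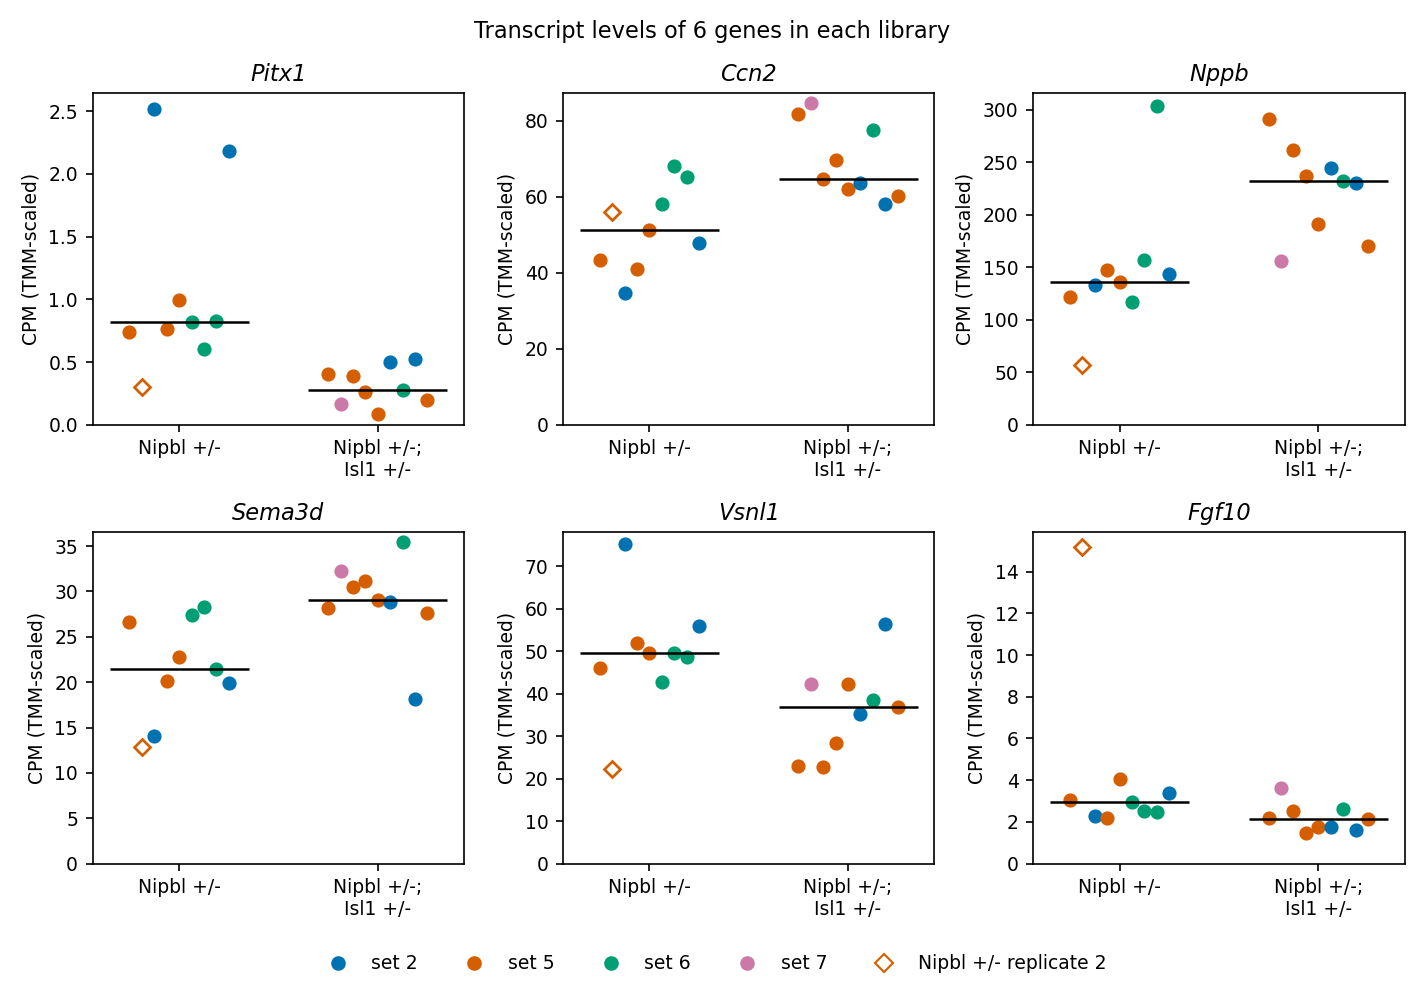
CPM of 6 genes in the 9 Nipbl +/- and 9 double-heterozygous libraries. Points are libraries coloured by set, bars are medians, and the open diamond is the library labelled Nipbl +/- replicate 2. Leaving that library aside, Pitx1 was lower in every double heterozygote than in any Nipbl +/- library, while the other genes overlapped.

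The 24 genes with the smallest p-values in either direction (12 higher, 12 lower, each with the same direction in sets 2, 5 and 6 and a mean log2 CPM of at least 1) are described next. They were chosen by these values, their adjusted p was 0.949 or 0.955 in edgeR, and none passed the test. Their fold changes were modest, from 0.31 to 0.81 on the log2 scale for the 12 higher genes and from -0.31 to -1.57 for the 12 lower ones.

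Among the 12 higher genes, Ccn2 (connective tissue growth factor, chromosome 10, 24595442 to 24598683) ran from 34.7 to 68.2 CPM in Nipbl +/- (median 51.2) and from 58.2 to 84.7 CPM in double heterozygotes (median 64.8). All 9 double heterozygotes were above the Nipbl +/- mean and 4 were above every Nipbl +/- library. Its log2 change was 0.47 (SE 0.10, unadjusted p 0.000129), and 0.51 without replicate 2. Sulf1, an enzyme that trims sulphate from heparan sulphate outside the cell, had a median of 55.7 CPM (34.8 to 66.6) in Nipbl +/- and 74.4 CPM (52.4 to 83.7) in double heterozygotes. The log2 change of Sulf1 was 0.45 (SE 0.12), and 7 double heterozygotes exceeded all Nipbl +/- libraries. Pcsk5, a protease that cuts growth factor precursors, had medians of 50.0 and 63.1 CPM (log2 change 0.36, SE 0.10). Il33, a cytokine gene, was low at 1.88 to 3.57 CPM against 3.12 to 4.87 CPM (log2 change 0.53, SE 0.13).

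The remaining higher genes were of mixed kinds. Pkhd1l1, a large membrane protein gene related to fibrocystin, had medians of 18.0 and 29.0 CPM, and its ranges (14.5 to 25.5 and 15.1 to 37.5 CPM) overlapped. Tmem255a, on the X chromosome, had medians of 28.7 and 41.8 CPM with a log2 change of 0.66 (SE 0.17). Prokr2, a prokineticin receptor, and Sv2b, a synaptic vesicle protein, differed by 0.54 and 0.65. Prkcb, which encodes protein kinase C beta, differed by 0.31 (SE 0.09), and 8 of 9 double heterozygotes were above every Nipbl +/- library. B3gnt7, a glycosyltransferase, and Zbtb8b, a zinc-finger gene, differed by 0.55 and 0.54, each with 7 double heterozygotes above all Nipbl +/- libraries.

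Nppb encodes B-type natriuretic peptide, a hormone of the working and trabecular myocardium. Its level was 57.2 to 303 CPM in Nipbl +/- (median 136) and 156 to 291 CPM in double heterozygotes (median 232). Every double heterozygote was above the Nipbl +/- mean, but the ranges overlapped, with Nipbl +/- reaching 303 CPM. The lowest Nipbl +/- value was replicate 2. The log2 change was 0.81 (SE 0.22, unadjusted p 0.00189), and 0.67 without replicate 2.

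Nppa, the atrial natriuretic peptide gene, is its neighbour on chromosome 4, where 13516 bases separate the 2 annotated genes. Nppa ran from 1030 to 2750 CPM (median 1630) in Nipbl +/- and from 1640 to 2970 CPM (median 2320) in double heterozygotes, with overlapping ranges. Its log2 change was 0.53 (SE 0.18, unadjusted p 0.00967), and 0.50 without replicate 2 (unadjusted p 0.0172). In set 6 the difference of set means went the other way, at -0.20, whereas it was 0.56 in set 2 and 0.77 in set 5.

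The 250 bases before the Nppa start (RefSeq, GRCm38.p6, plus strand, chr4:148000472-148000721) are shown because Nppa and Nppb are neighbours that were both higher, beside the same stretch of Isl1 (minus strand, chr13:116309689-116309938), the gene whose copy was removed. Capitals mark exact matches on either strand to GATAA (or its reverse complement TTATC), the core bound by GATA factors, and to AAGTG (or its reverse complement CACTT), the core bound by Nkx2-5.
Nppa: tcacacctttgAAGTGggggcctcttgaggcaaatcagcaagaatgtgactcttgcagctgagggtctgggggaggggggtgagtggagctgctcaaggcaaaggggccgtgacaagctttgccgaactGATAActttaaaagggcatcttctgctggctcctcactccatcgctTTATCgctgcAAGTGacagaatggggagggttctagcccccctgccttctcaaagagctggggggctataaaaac
Isl1: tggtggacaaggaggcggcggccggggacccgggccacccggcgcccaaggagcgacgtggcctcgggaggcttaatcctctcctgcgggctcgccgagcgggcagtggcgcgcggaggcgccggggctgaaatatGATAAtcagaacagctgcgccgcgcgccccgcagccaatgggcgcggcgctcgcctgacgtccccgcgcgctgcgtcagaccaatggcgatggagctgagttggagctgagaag
Nppa held 2 matches to GATAA and 2 to AAGTG, and Isl1 held 1 and 0. Of 32851 promoter stretches of this length, 22.6% held GATAA and 40.7% held AAGTG at least once. CTAATG (or its reverse complement CATTAG), a core bound by Isl1, was found in neither and in 6.36% of all stretches. These are matches of letters and not measured binding sites.

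The 12 lower genes included 2 with larger differences. Hlx, a homeobox gene of visceral mesenchyme, ran from 1.24 to 13.2 CPM in Nipbl +/- (median 3.28) and from 0.565 to 3.81 CPM in double heterozygotes (median 1.74). All 9 double heterozygotes lay below the Nipbl +/- mean, 2 lay below every Nipbl +/- library, and the log2 change was -1.57 (SE 0.42), or -1.27 without replicate 2. Clstn2, a calsyntenin, had medians of 3.09 and 1.90 CPM with a log2 change of -0.81 (SE 0.18), or -0.62 without replicate 2. For Clstn2, 6 double heterozygotes lay below all Nipbl +/- libraries.

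The other 10 lower genes differed by -0.31 to -0.52 on the log2 scale. Mtmr7, a myotubularin-related phosphatase, ran from 5.98 to 8.98 CPM in Nipbl +/- and from 4.36 to 6.26 CPM in double heterozygotes, 8 of which were below every Nipbl +/- library. Adra1b, the alpha-1B adrenergic receptor, had medians of 12.1 and 9.52 CPM, again with 8 double heterozygotes below every Nipbl +/- library. AW551984 had 7 such libraries, and Ppp1r17, a protein phosphatase regulator, and Sh3gl3, an endophilin, had 6 each. Gstt1, a glutathione transferase, Smim10l2a, a small membrane protein gene on the X chromosome, and Atp6v0e2, a proton pump subunit, had 4 each. Olfm1, an olfactomedin, and P4htm, a membrane-bound prolyl hydroxylase, had 3 each.

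**Figure D3:**
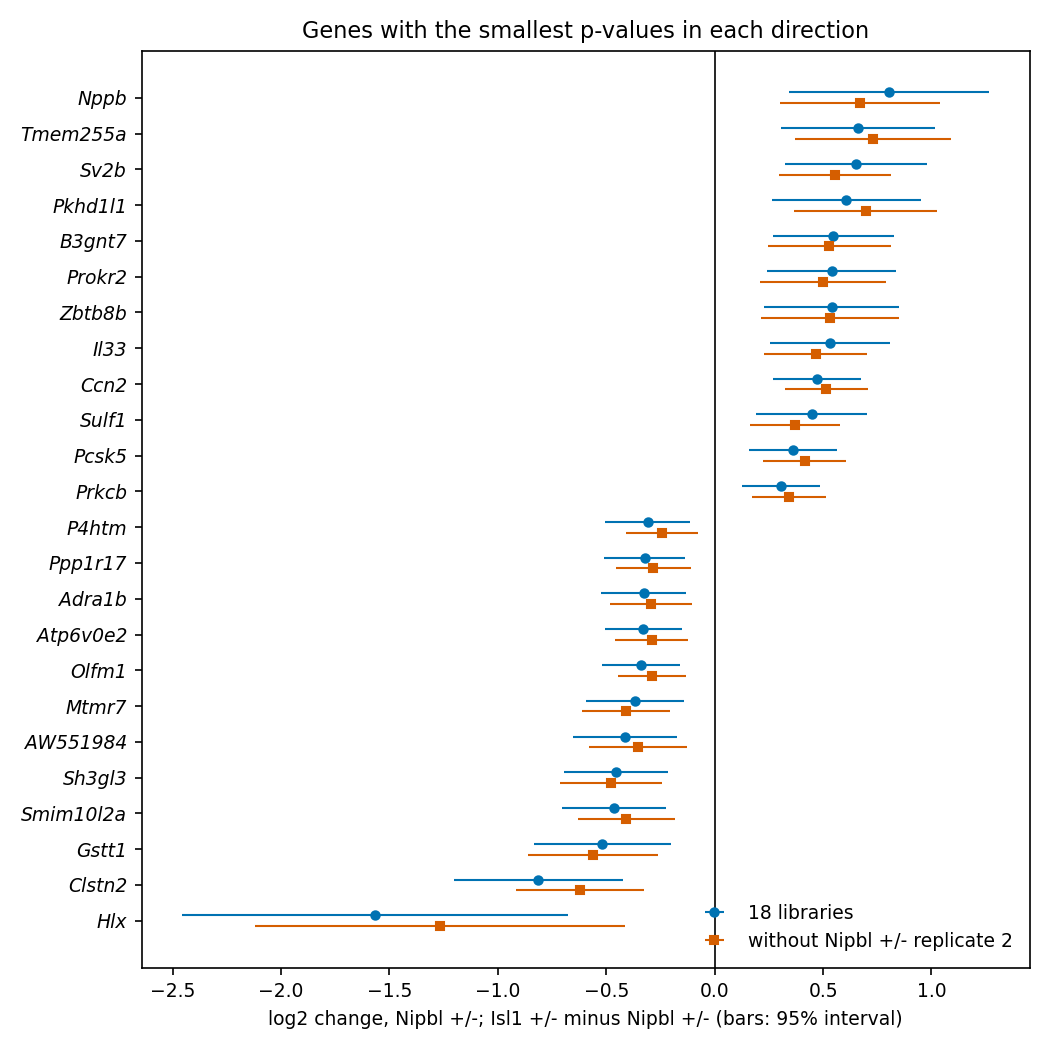
Log2 change (double heterozygotes minus Nipbl +/-) of the 24 genes with the smallest p-values, with 95% intervals, for all 18 libraries (circles) and without the library labelled Nipbl +/- replicate 2 (squares). The genes were chosen by these values, so their distance from 0 is a description. Directions were the same without that library, and Hlx and Clstn2 moved towards 0.

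Genes linked to Isl1 were then taken as a list of 27, known from other work as bound by Isl1 or altered in Isl1 mutant hearts. In it 26 genes were tested, of which 0 were higher and 4 lower at an unadjusted p under 0.05 (15.4%, against 2.32% lower over all genes), and 0 passed the adjusted test. The median log2 change of the list was -0.151, against -0.0107 over all genes. Without Nipbl +/- replicate 2 the list had 6 lower genes (23.1%, against 2.14% over all genes) and a median of -0.0856. With the mean level of red blood cell genes as a covariate the median was -0.0226, with 2 lower genes (7.69%, against 0.579% over all genes in that fit). The count was 1 without Nipbl +/- replicate 3 (3.85%, against 2.22% over all genes). It was 2 (7.69%) without Nipbl +/- replicate 1 or double-heterozygous replicate 4, against 3.28% and 1.41% over all genes. It was 1 with no set term (over all genes 2.17%) and 10 with 2 surrogate variables (4.77%). No member was higher at that level in any of these fits.

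Fgf10, the growth factor of the second heart field and a target of Isl1, lies on the same chromosome as Isl1 (13, 118714699 to 118792573). It ran from 2.19 to 15.2 CPM in Nipbl +/- (median 2.95) and from 1.47 to 3.61 CPM in double heterozygotes (median 2.16). The value of 15.2 CPM belonged to replicate 2, and the next highest Nipbl +/- value was 4.08. With that library the log2 change was -1.07 (SE 0.34, unadjusted p 0.00625), and without it -0.52 (SE 0.16, unadjusted p 0.00529). In both fits 5 double heterozygotes lay below every Nipbl +/- library. In set 6 the difference of set means was -0.01, against -0.71 in set 2 and -0.58 in set 5 without replicate 2.

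Nkx2-5, a core cardiac homeobox factor, ran from 217 to 351 CPM (median 264) and from 177 to 276 CPM (median 245), with a log2 change of -0.21 (SE 0.08, unadjusted p 0.0163). Tbx5, a T-box factor of the atria and left ventricle, had medians of 93.4 and 87.9 CPM, with a log2 change of -0.19 (unadjusted p 0.0292), or -0.13 without replicate 2 (unadjusted p 0.064). Shox2, which drives the sinus node programme, ran from 20.5 to 44.4 CPM (median 36.4) and from 7.18 to 42.0 CPM (median 23.5). For Shox2 the log2 change was -0.47 (SE 0.22, unadjusted p 0.0472), 3 double heterozygotes lay below all Nipbl +/- libraries and the rest overlapped. Fgf8 had a log2 change of -0.54 (unadjusted p 0.058), and Mef2c and Hand2, both regulated by Isl1 in other work, had -0.21 (unadjusted p 0.081) and 0.07 (unadjusted p 0.69).

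In a list of Isl1 itself with its relatives and partners (13 genes, 12 tested), 0 were higher and 1 lower (8.33%, against 2.32% over all genes). The count was 3 lower without Nipbl +/- replicate 3, 2 without Nipbl +/- replicates 4 or 7 or double-heterozygous replicates 1, 6, 7 or 8, and 0 without Nipbl +/- replicate 5. Over all genes 1.81% to 3.37% were lower in these fits. Isl1 itself was among the lower genes without Nipbl +/- replicates 3 or 4 (unadjusted p 0.0426 and 0.0432 in edgeR). The same held without double-heterozygous replicates 1 or 6 (unadjusted p 0.00396 and 0.0234). With replicate 2 left out, 1 gene was higher and 1 lower. The lower gene was the LIM-homeodomain factor Lhx2, at 0.328 to 9.00 CPM in Nipbl +/- (median 1.72) and 0.427 to 2.41 CPM in double heterozygotes (median 0.718). Its log2 change was -1.20 (SE 0.43, unadjusted p 0.0134). The cofactor Ldb1 stood at -0.01 (unadjusted p 0.95), a difference not detectable here.

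Second heart field markers (20 of 21 tested) included 0 higher and 2 lower genes, Fgf10 and Foxf1 (10%, against 2.32% over all genes). Without Nipbl +/- replicate 9, 1 gene was higher and 1 lower (over all genes 2.51% and 2%). The count was 3 lower without Nipbl +/- replicates 3 or 5, double-heterozygous replicates 3 or 8, or set 2. Over all genes 1.7% to 3.37% were lower in those fits. It was 0 without set 5, where 0.864% of all genes were lower. Foxf1, a forkhead factor of splanchnic mesoderm, was low, with medians of 1.16 and 0.808 CPM and a log2 change of -0.94 (SE 0.34, unadjusted p 0.0133). It ran from 0.865 to 6.79 CPM in Nipbl +/- and from 0.313 to 3.20 CPM in double heterozygotes. Without Nipbl +/- replicate 5 its log2 change was -0.68. The list's median changed sign with replicate 2, from -0.139 with it to 0.0417 without it. Of 14 outflow tract genes, 0 were higher and 0 lower, with a median of 0.0409. Without replicate 2, 1 was lower (2.14% of all genes were).

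Wnt, BMP, Fgf and Notch signalling genes (24 of 24 tested) included 0 higher and 3 lower genes (12.5%, against 2.32% over all genes). These were Fgf10, the ligand gene Wnt2 and Axin2, a target and inhibitor of Wnt signalling. Without replicate 2 there were 5 lower genes (20.8%, against 2.14% over all genes), and without set 2 there was 1 (4.17%, against 2.29%). Wnt2, which is expressed at the inflow and in atrial tissue, ran from 18.0 to 46.5 CPM (median 39.2) in Nipbl +/- and from 20.7 to 41.5 CPM (median 27.3) in double heterozygotes. Its lowest Nipbl +/- value was replicate 2, the other 8 began at 34.4 CPM, and 7 double heterozygotes lay below those 8. The log2 change of Wnt2 was -0.39 (unadjusted p 0.0161) with replicate 2 and -0.49 (SE 0.10, unadjusted p 0.00013, edgeR adjusted p = 0.521) without it. Axin2 had medians of 11.1 and 9.88 CPM and a log2 change of -0.29 (unadjusted p 0.0195).

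The sinus node list (14 of 14 tested) included 0 higher and 3 lower genes, 21.4% against 2.32% over all genes, and its median was -0.161. Without replicate 2 there were 4 lower genes (28.6%, against 2.14% over all genes) and a median of -0.221. Without set 2 the count was 1 lower (7.14%, against 2.29% over all genes in that fit). With all 37 libraries in 1 fit it was 1 higher and 1 lower (over all genes 3.4% and 5.57%), and with 2 surrogate variables 1 higher and 7 lower (5.76% and 4.77%). Besides Shox2, the lower genes with all 18 libraries were Cacna1d and Vsnl1. Vsnl1, a calcium sensor gene enriched in pacemaker cells, ran from 22.4 to 75.4 CPM in Nipbl +/- (median 49.7) and from 22.7 to 56.5 CPM in double heterozygotes (median 36.9). Its lowest Nipbl +/- value was replicate 2. The other 8 began at 42.9 CPM, and 8 of 9 double heterozygotes lay below that. The log2 change of Vsnl1 was -0.45 (SE 0.18, unadjusted p 0.0195), and -0.56 without replicate 2 (SE 0.14, unadjusted p 0.00109). Cacna1d, a pacemaker calcium channel, had medians of 29.9 and 19.5 CPM and a log2 change of -0.46 (SE 0.16, unadjusted p 0.0115), and in set 6 its set means differed by 0.20 in the opposite direction. Hcn4, the pacemaker channel gene, differed by -0.18 (unadjusted p 0.34), and Tbx3 by -0.04 (unadjusted p 0.79). In bulk hearts, fewer sinus node cells and less RNA per cell cannot be told apart, and the same holds for every list here.

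Several epicardial genes lay higher in the double heterozygotes, and none passed the adjusted test. Of 13 genes of this outer layer 12 were tested, 5 were higher and 0 lower at an unadjusted p under 0.05 (41.7%, against 2.43% higher over all genes), and the median was 0.205. Without Nipbl +/- replicate 2 there were 7 higher (58.3%, against 3.53% over all genes), 0 lower and a median of 0.261. Sema3d, a guidance ligand gene, ran from 12.9 to 28.3 CPM (median 21.4) in Nipbl +/- and from 18.1 to 35.4 CPM (median 29.1) in double heterozygotes, 6 of which were above every Nipbl +/- library. Its log2 change was 0.48 (SE 0.14, unadjusted p 0.00236), with 0.45, 0.56 and 0.47 in sets 2, 5 and 6.

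Upk3b, a mesothelial surface protein gene, had medians of 199 and 270 CPM and a log2 change of 0.36 (SE 0.11). Wt1, the transcription factor that defines the epicardium, ran from 48.5 to 72.1 CPM and from 57.7 to 92.6 CPM, with 6 double heterozygotes above all Nipbl +/- libraries and a log2 change of 0.21 (SE 0.07, unadjusted p 0.00565). Tcf21, a factor of epicardial derivatives, and Lrrn4 differed by 0.44 and 0.31. Tbx18 stood at 0.20 (unadjusted p 0.054) and Aldh1a2, which makes retinoic acid, at 0.33 (unadjusted p 0.068). The summed level of the list was 764 to 1410 CPM in Nipbl +/- (median 868) and 949 to 1510 CPM in double heterozygotes (median 1020). The value of 1410 was replicate 2, and the other 8 reached 1030. Without set 5, which held 9 of the 18 libraries, 1 of the 12 genes was higher at this level (1.2% of all genes were) and the median was 0.239.

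Working myocardium gave few differences. Of 17 sarcomere genes and 11 ventricular genes, 0 were higher and 0 lower, and their medians were -0.00453 and -0.0225. Of 11 trabecular genes 3 were higher and 0 lower: Nppb, Nppa and Slit2, a guidance ligand gene, which differed by 0.30 (SE 0.13, unadjusted p 0.0306). That is 27.3% of the list, against 2.43% higher over all genes. Without replicate 2 the list had 3 higher genes, against 3.53% of all genes, and a median of 0.053. Slit2 then differed by 0.26 (unadjusted p 0.0526). Bmp10, a trabecular growth factor, differed by 0.54 (unadjusted p 0.053). Without set 5, 0 of the 11 were at this level. Of 12 atrial genes Nppa was higher and Tbx5 lower, and the median was -0.0353. Without replicate 2 there were 2 higher and 3 lower atrial genes, against 3.53% higher and 2.14% lower over all genes.

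**Figure D4:**
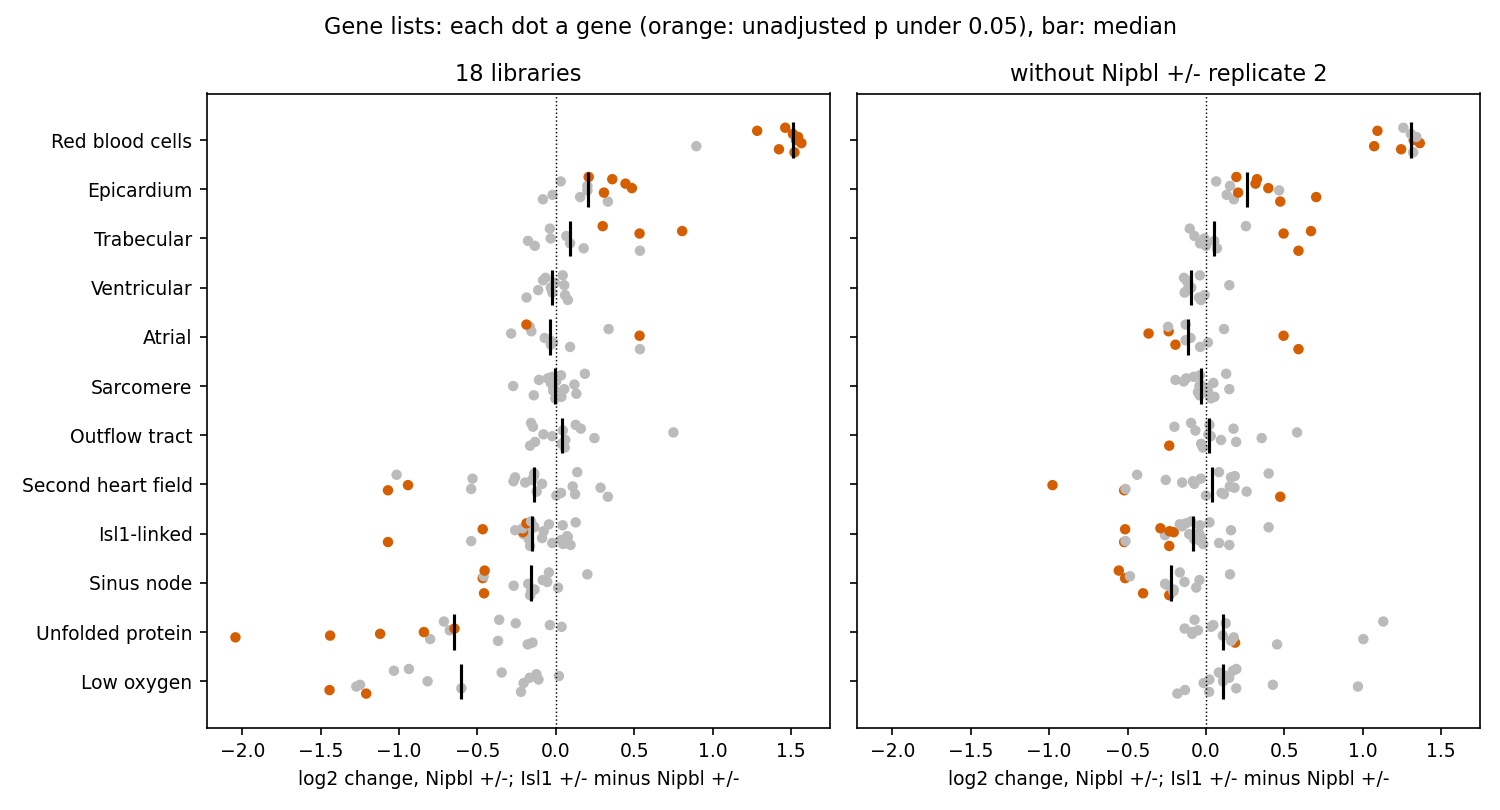
Log2 change (double heterozygotes minus Nipbl +/-) of each tested gene in 12 lists, with all 18 libraries (left) and without the library labelled Nipbl +/- replicate 2 (right). Orange dots have an unadjusted p under 0.05, grey dots do not, and vertical bars are list medians. Epicardial genes lay to the right and sinus node genes to the left in both panels, whereas the unfolded-protein and low-oxygen lists moved to about 0 on the right.

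Red blood cell genes also lay higher in the double heterozygotes, and none passed the adjusted test. All 9 tested of 14 genes were above 0 (46.8% of all genes were), 8 were higher at an unadjusted p under 0.05 (2.43% of all genes were), and the median was 1.51. Without Nipbl +/- replicate 2 there were 5 higher, against 3.53% of all genes, and the median was 1.31. Their summed level ran from 503 to 23500 CPM in Nipbl +/- (median 6780) and from 1320 to 54200 CPM in double heterozygotes (median 15400), so it varied more within a group than between them. The value of 503 was replicate 2, and the other 8 Nipbl +/- libraries began at 1490 CPM, with a median of 8430. For the embryonic globin Hbb-y the range was 211 to 11600 CPM and 566 to 25600 CPM, with a log2 change of 1.51 (SE 0.64). The lowest Hbb-y value was also replicate 2, and the other 8 began at 625 CPM. Hba-x, Hbb-bh1, Alas2, Slc4a1, Klf1 and Epb42 had log2 changes of 1.28 to 1.55. Leaving out double-heterozygous replicate 3 gave 0 higher genes and a median of 0.885. Leaving out Nipbl +/- replicate 1 gave 3 (2.19% of all genes), and leaving out double-heterozygous replicate 7 gave 5 (1.89%). The count was also 0 with no set term or without set 5, and 1 with the replicate number as a block in place of set or in the fit of all libraries without Nipbl +/- replicate 2. Over all genes 2.66% were higher with that block and 4.01% in that fit. With the mean of these genes as a covariate, 23 of the 24 genes with the smallest p-values kept an unadjusted p under 0.05, the measure they were chosen by, and without set 5 15 of the 24 did. The epicardial list then had 3 higher genes (25%), the trabecular list 1 (9.09%) and the sinus node list 2 lower (14.3%), while over all genes 0.695% were higher and 0.579% lower. The part of blood content in the other results was otherwise not tested.

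Markers of other tissues were low or scattered. The neuronal list (10 of 16 tested) had 1 lower gene, Pax6, and the foregut list (6 of 12 tested) had 1 higher gene, Sox2, against 2.43% higher and 2.32% lower over all genes. Without replicate 2 the neuronal list had 2 lower genes, against 2.14% over all genes. Pax6, an eye and brain homeobox factor, stood at 0.595 to 1.26 CPM in Nipbl +/- (median 0.797) and 0.176 to 0.860 CPM in double heterozygotes (median 0.488), 8 of which were below every Nipbl +/- library. Its log2 change was -1.08 (SE 0.26, unadjusted p 0.000644). Sox2 differed by 1.22 (SE 0.36, unadjusted p 0.00339) at medians of 0.264 and 0.506 CPM. Summed liver genes stayed at 11.3 to 40.4 CPM except for 1 Nipbl +/- library at 480, and 0 of 5 tested genes were higher or lower, or 1 lower without replicate 2. In the cushion mesenchyme list Dcn, a matrix proteoglycan gene, was higher (0.45, unadjusted p 0.0237), and in the cell cycle list Mcm6, a replication helicase subunit, was higher (0.18, unadjusted p 0.0304), each the single higher gene of its list (16 and 21 genes). White blood cell, neural crest, endocardial, cohesin and immediate early lists had 0 higher and 0 lower genes with all 18 libraries. Without replicate 2 there were 2 higher endocardial, 2 higher immediate early and 1 higher cohesin gene, of 14, 12 and 15 tested, against 3.53% higher over all genes. The median of the white blood cell list then went from -0.354 to 0.147, and that of the immediate early list from -0.196 to 0.113.

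The unfolded-protein list (15 of 15 tested) had 0 higher and 5 lower genes with a median of -0.647, and the low-oxygen list (also 15) had 0 higher and 2 lower with a median of -0.603, against 2.32% lower over all genes. Both rested on the library labelled Nipbl +/- replicate 2. Ddit3, a stress-induced transcription factor, stood at 702 CPM in it and at 10.4 to 19.7 CPM in the other 8, against 10.9 to 25.7 CPM in double heterozygotes. Without it the log2 change of Ddit3 went from -2.04 to 0.18, that of Ddit4, an inhibitor of mTOR signalling, from -1.44 to 0.11, and the list medians became 0.108 and 0.109. The other lower genes were the chaperone genes Hspa5 and Dnajb9, Herpud1, the vasoactive peptide gene Adm and Ankrd37. All 5 had a log2 change of -0.65 to -1.44 with that library, and each lay between -0.09 and -0.18 without it, with unadjusted p of 0.0596 or more.

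Hox genes, a family grouped here after their values were seen, were mostly too low to test. Of 39 genes of the 4 clusters 9 passed the count filter, and a gene this low can pass it through the group where it is high. The log2 changes of the 9 were all below 0 and those of the 7 tested on the Nipbl +/+ background all above 0, and with that filter neither supports a direction of the family. Hoxc4 (chromosome 15, 103018097 to 103036856) stood at 0.264 to 2.57 CPM (median 0.842) in Nipbl +/- and at 0 to 0.565 CPM (median 0.111) in double heterozygotes, with 7 below all Nipbl +/- libraries. Its fitted log2 change of -2.63 and its DESeq2 call rest on counts near 0 in the double heterozygotes, and it was not tested where at least 10 counts in every library were asked for. Its neighbour Hoxc5 was not tested, and had medians of 0.484 and 0.0328 CPM. In wild-type hearts the median of Hoxc4 was 0.0435 CPM, below the median of either group. The summed level of the family was 15.2 to 61.6 CPM in Nipbl +/- and 12.1 to 38.5 CPM in double heterozygotes.

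The same Isl1 contrast on the Nipbl +/+ background used 19 other libraries and shares none with the comparison above. It too gave 0 of 14505 genes at an adjusted p under 0.05 (edgeR), with 2451 (16.9%) at an unadjusted p under 0.05, 7.66% higher and 9.24% lower. The 2451 became 751 with no set term and 883 with all 37 libraries in 1 fit. Of the 12 higher genes 10 had the same sign there, and 8 of them an unadjusted p under 0.05. Of the 12 lower genes 6 had the same sign, and 3 of them an unadjusted p under 0.05. Over the alternative settings 5 to 9 of the lower genes had the same sign, 1 to 3 of them at that level. Of all 14421 genes tested in both comparisons 56.9% had the same sign, and of the 674 with an unadjusted p under 0.05 in the Nipbl +/- comparison 77.7% did.

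Tmem255a was higher on both backgrounds, at medians of 17.1 CPM in wild-type and 29.8 CPM in Isl1 +/- hearts (log2 change 0.91). Sulf1 differed by 0.41 there (unadjusted p 0.00018), Pkhd1l1 by 0.82, Prokr2 by 0.67 and Il33 by 0.49, close to their values with Nipbl loss. The epicardial genes Upk3b (0.45) and Sema3d (0.43) were higher there too, whereas Wt1 stood at 0.01 (unadjusted p 0.889). Over the 12 epicardial genes 3 were higher and 3 lower there, with a median of 0.118. The sinus node list had 3 higher and 0 lower genes there and 11 of 14 above 0, and the trabecular list had 0 higher and 4 of 11 lower. Over all genes there, 7.66% were higher and 9.24% lower at this level. The differences between backgrounds were not tested for these lists. Pax6 (-0.82), Ppp1r17 (-0.27), Fgf10 (-0.44) and Nkx2-5 (-0.21) were lower on both backgrounds.

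Other genes differed in sign or size. Nppb stood at -0.34 (unadjusted p 0.00758) on the Nipbl +/+ background, from a median of 203 CPM in wild-type to 190 CPM in Isl1 +/- hearts, against 0.81 with Nipbl loss. The difference of the 2 Nppb changes in a fit of 37 libraries was 0.97 (SE 0.27, unadjusted p 0.001, edgeR adjusted p = 0.999). Ccn2 stood at -0.06, a difference of 0.46 (unadjusted p 0.00788), and Clstn2 at 0.21, a difference of -0.96 (unadjusted p 0.000204). Shox2 stood at 0.96 (unadjusted p 0.0943), with wild-type libraries from 0.846 to 47.8 CPM, and the difference was -1.29 (unadjusted p 0.0336). Of the 24 genes 9 had an unadjusted p under 0.05 for this difference, against 2.71% of 15046 genes, but they were chosen on a contrast that enters it. Over all 15046 genes 0 passed the adjusted test of the difference.

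**Figure D5:**
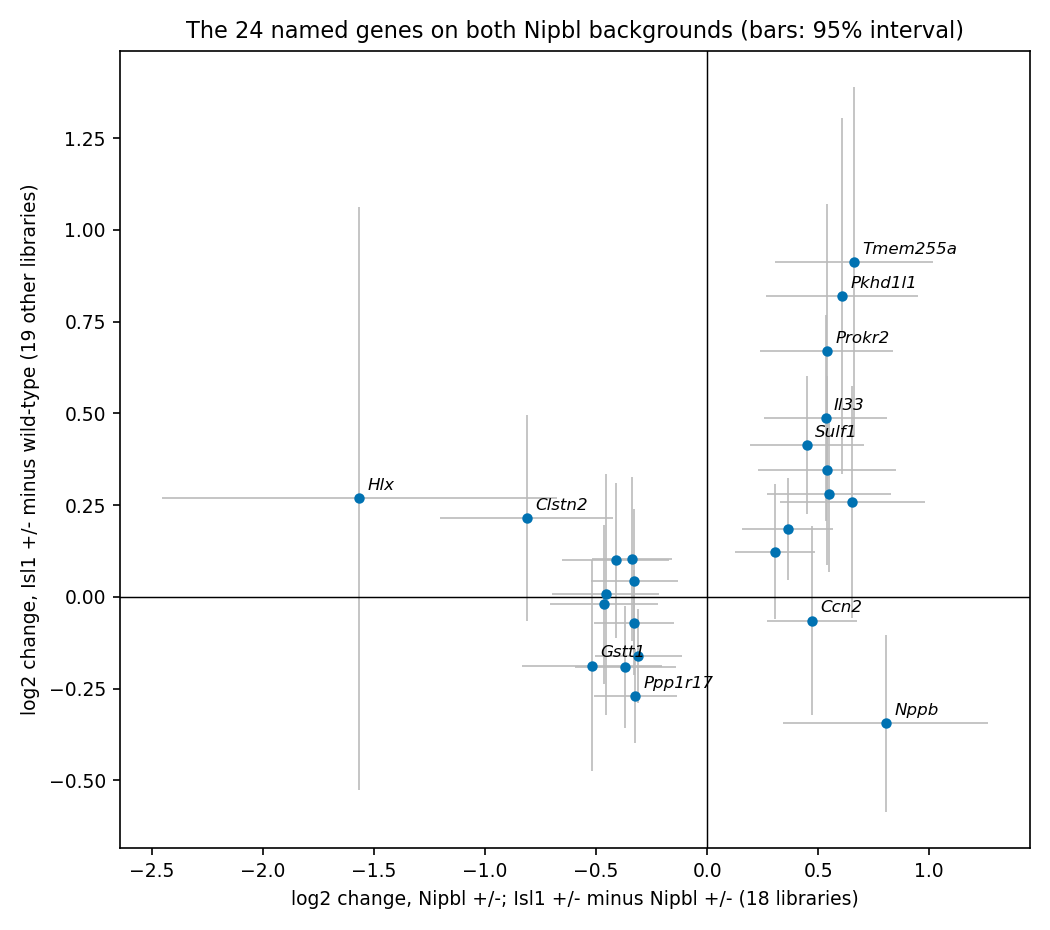
Log2 change on the Nipbl +/- background (x axis, 18 libraries) against that on the Nipbl +/+ background (y axis, 19 other libraries) for the 24 genes chosen on the x axis. Bars are 95% intervals. Of the 12 higher genes 10 lay above 0 on the y axis, with Nppb and Ccn2 below it, and 6 of the 12 lower genes lay below it.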

How the data were processed

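The authors deposited raw read counts per gene symbol, 1 column per library. From their values these are whole numbers that were not normalized. STAR, featureCounts and the builds GRCm38 and mm10 are named per the submitters' processing notes, with no versions, roles or strand setting, so overlapping and antisense genes cannot be told apart. Of 25239 genes, 4273 had a count of 0 in every library.

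Genes were filtered with filterByExpr (minimum count 10, minimum total count 15), scaled by TMM and tested with edgeR 4.0.16 (R 4.3.3) by its quasi-likelihood test with genotype and set number as terms. Benjamini-Hochberg adjustment covered every gene in a fit, with a threshold of 0.05. Log2 CPM used a prior count of 2. CPM values printed are on 1 TMM scale over 37 libraries. The script was tested on simulated data.

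Members and gene lists were chosen with earlier results of these data known. Named genes are Isl1, Nipbl, up to 12 per direction with the smallest p (mean log2 CPM of at least 1, same direction in sets 2, 5 and 6, not Xist, Tsix or Y-linked) and list members with an unadjusted p under 0.05, of which 1 is not reported here. Pitx1, Hoxc4 and Hoxc5 were named after their values were seen. Alternatives used DESeq2 1.42.0, sva 3.50.0, other filters and scalings, other covariates, and leaving out each library or set. Coordinates and promoter stretches come from RefSeq (GRCm38.p6).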

Additional observations from a re-analysis of the deposited data

Results flagged for a closer look

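Among 28 genes (Isl1, Nipbl, Pitx1, Hoxc4 and the 24 with the smallest p-values) in each of the 2 groups, 56 sets of 9 libraries were checked for a library far from the rest, as the gap to its neighbour divided by the whole range of log2 CPM. 5 exceeded Dixon's 95% critical value, and chance alone gives about 1 in 20. B3gnt7 was lowest in Nipbl +/- replicate 3 (ratio 0.522, 4.33 CPM). Prkcb was lowest in double-heterozygous replicate 6 (ratio 0.65, 29.9 CPM). Double-heterozygous replicate 2, the single set 7 library, was lowest for Clstn2 (ratio 0.525, 1.08 CPM) and highest for Ppp1r17 (ratio 0.542, 40.4 CPM). Adra1b was highest in the library labelled Nipbl +/- replicate 2 (ratio 0.664, 14.6 CPM).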

How the results depend on the processing

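The count of genes changed, 0 with all 18 libraries, was 1 without Nipbl +/- replicate 2, 1 with 2 surrogate variables and 3 with DESeq2, and ranged from 0 to 1 when libraries were left out in turn. The 698 genes at an unadjusted p under 0.05 became 477 to 872 when libraries were left out in turn, 305 without set 5, 1349 with all 37 libraries in 1 fit, 1140 in that fit without Nipbl +/- replicate 2, 1546 with 2 surrogate variables and 187 with the red blood cell mean as covariate. The causes of these shifts were not tested. Isl1 ranged from -0.58 to -0.34 over libraries left out, and was -0.20 with the red blood cell covariate. The log2 change of Nipbl, -0.10, was 0.074 without Nipbl +/- replicate 2, 0.15 without set 5, 0.083 in the fit of all libraries without that replicate, 0.012 with 2 surrogate variables and 0.091 with the red blood cell covariate, and ranged from -0.19 to 0.074 over libraries left out. Ddit3 became 0.18 and Ddit4 0.11 without Nipbl +/- replicate 2, and 0.15 and 0.13 in the fit of all other libraries; over libraries left out Ddit3 ranged from -2.63 to 0.18 and Ddit4 from -1.84 to 0.11. With the red blood cell covariate Hbb-y was -0.038, Hbb-bh1 -0.052 and Alas2 -0.033, since that covariate is built from these genes. DESeq2 called 138 genes between Isl1 +/- and wild-type hearts, where edgeR called 0. The 2451 genes at an unadjusted p under 0.05 in that comparison became 751 with no set term, 883 with all 37 libraries in 1 fit, 1225 without set 2 and 1283 without set 5.

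The titles give both groups the numbers 1 to 9. Deviations of same-numbered libraries correlated above 0.1 in 5 of 9 pairs (-0.316 to 0.554), and 3 of 9 correlated best with their own number, so the numbers were not taken as pairs. With the replicate number as a block in place of set, 0 genes passed, 618 had an unadjusted p under 0.05, Isl1 stood at -0.52 (unadjusted p 0.0102, adjusted p = 0.99 in edgeR) and Nipbl at -0.01. The standard error, 0.14 at the median and 0.21 for Isl1, limits what could be seen. A log2 change must exceed several such errors to pass the adjusted test.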

Other observations

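Of the 674 genes with an unadjusted p under 0.05 in the Nipbl +/- comparison that were also tested between Isl1 +/- and wild-type hearts, 163 had the same sign and an unadjusted p under 0.05 there too, where 16.9% of all genes had such a p in either direction. None passed edgeR's adjusted test in either comparison with all libraries, and the genes named here were picked after their values were seen. Krt7, a keratin gene, differed by 0.60 with Nipbl loss and 0.28 without it, Dpp4, a surface peptidase gene, by 0.43 and 0.42, and Calb2, which encodes calretinin, by 1.03 and 1.02. Nphs1 and Kirrel2, which encode nephrin and a nephrin-like adhesion protein, differed by 0.80 and 0.95, and by 0.59 and 0.80. Rspo1, a secreted enhancer of Wnt signalling, differed by 0.49 and 0.45. Fbln2 and Fmod, which encode matrix proteins, differed by 0.39 and 0.37, and by 0.64 and 0.69. Lower on both backgrounds were Barx1, a homeobox gene (-0.86 and -0.33), and Pth1r, a parathyroid hormone receptor gene (-0.20 and -0.15).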
